A study of Mus musculus with 10 samples.

Results

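The 9 members examined here, Adam8, Adam9, Adam10, Adam12, Adam15, Adam17, Adam19, Adam23 and Adam33, are ADAM proteinase genes chosen by name, and all 9 have a row among the 46517 mouse genes counted in dermal endothelial cells. They were chosen with earlier results of these data known, so their counts and medians beside those of all genes are descriptive. RNA was measured by Smart-Seq2, a plate-based full-length method, in single cells from ear skin of 5-week-old mice, sorted with antibodies to Podoplanin and CD31 after removal of CD45+, CD11b+ and Ter119+ cells. The 5 mutant mice were Pik3caH1047R;Cdh5-CreERT2 Cre+ animals given 4-OHT on the ears at 3 weeks of age. Cdh5-CreERT2 is active in blood and lymphatic endothelium, so both could carry activated PI3K, and the mutant protein is encoded by a chicken PIK3CA transgene. Of the controls, number 1 was C57BL/6J and untreated, and number 2 came from the mutant line, lacked Cre and was given 4-OHT; another Cre- control in the labels was not analysed here. Neither control therefore combines Cre activity with an inactive transgene, and the number of controls, 2, limits every genotype test.

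ADAM proteins are membrane-anchored metalloproteinases with a disintegrin domain. The catalytically active members cut the extracellular part of other membrane proteins, a step called ectodomain shedding, which releases growth factors and cytokines, ends cell adhesion and starts Notch signalling. In endothelium, ADAM10 and ADAM17 are the best-known sheddases: ADAM10 cuts Notch receptors and VE-cadherin, and ADAM17 cuts TNF, its receptors and several EGF-family ligands. ADAM8, ADAM9, ADAM12, ADAM15, ADAM19 and ADAM33 are also proteinases, whereas ADAM23 lacks an active catalytic site and acts in cell adhesion.

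Across 9 plates, 3248 of 3456 wells passed the cell filters. A cell was called a lymphatic endothelial cell (LEC) when its summed CPM (reads of a gene scaled to a common library size) of Prox1, Flt4 and Mmrn1 reached 300 and exceeded those of Flt1, Emcn and Podxl, and a blood endothelial cell (BEC) in the reverse case. This gave 1641 LECs and 1490 BECs, with 117 cells in neither class, although the labels call every cell a sorted LEC. Independent markers matched the gates: the sum over 6 lymphatic genes, Lyve1 and Pdpn among them, lay between 3687 and 5528 CPM in LECs and between 171 and 560 CPM in BECs. LECs with at least 100 CPM of Ptx3 are called Ptx3-high LECs below. They numbered 544, of which 488 came from mutants, 12 from control 1 and 44 from control 2. Each plate held 99969650 to 151812175 reads, and all tests used reads summed per mouse and class. In such sums fewer expressing cells and less RNA per cell cannot be told apart. Mutants 1 to 4 were on plates of a lower number range than mutant 5 and both controls, so genotype and plate range overlap in large part, and values for mutant 5 against the controls alone are given beside the ADAM members called by genotype.

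The members differ in genomic setting (GRCm38). Adam15 spans chr3:89338542-89349996 on the minus strand, Adam12 chr7:133883199-134232146, Adam8 chr7:139978932-139992562 and Adam17 chr12:21323509-21373632, all on minus strands, and all 9 are protein coding in GENCODE. Of Adam15's exon bases, 20.6% lie within exons of 4731419I09Rik, a gene on the opposite strand. Smart-Seq2 does not mark strand, so reads in the shared stretch cannot be told apart. The shared portion was 10.1% for Adam19, 4.35% for Adam17 and 0.992% for Adam8, and it was 0 for the other members.

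Promoters with an entry in RefSeq (GRCm38.p6) are shown for Adam15, Adam17 and Adam8 so that their composition can be compared. Adam15 and Adam17 were called higher in a genotype test. In the main genotype tests Adam8 passed only in Ptx3-high LECs, where neither control had a read, so a rise cannot be sized for it. Of the 9 members 6 have an entry, and Adam9, Adam12 and Adam33 do not. Each runs 5′ to 3′ from 250 bases before to 50 bases after the start site. Capitals mark matches on either strand, and neighbouring matches may overlap. The forkhead motif bound by FOXO factors was searched as TGTTTAC and the GC box bound by Sp factors as GGGCGG. The core motif of the ETS family, common in endothelial promoters, was searched as CCGGAA and the CCAAT box, a general promoter element, as ATTGG. For AP-1, the Fos and Jun dimer, the letters were TGAGTCA, and for the E-box of basic helix-loop-helix factors they were CACGTG.
Adam15, chr3:89349979-89350278, minus strand: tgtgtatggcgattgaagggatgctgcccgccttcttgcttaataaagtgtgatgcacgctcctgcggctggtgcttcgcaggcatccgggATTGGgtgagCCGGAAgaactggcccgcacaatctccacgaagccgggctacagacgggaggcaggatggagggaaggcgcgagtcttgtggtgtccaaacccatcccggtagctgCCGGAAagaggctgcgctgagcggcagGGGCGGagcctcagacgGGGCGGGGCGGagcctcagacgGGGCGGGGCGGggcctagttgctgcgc
Adam17, chr12:21373583-21373882, minus strand: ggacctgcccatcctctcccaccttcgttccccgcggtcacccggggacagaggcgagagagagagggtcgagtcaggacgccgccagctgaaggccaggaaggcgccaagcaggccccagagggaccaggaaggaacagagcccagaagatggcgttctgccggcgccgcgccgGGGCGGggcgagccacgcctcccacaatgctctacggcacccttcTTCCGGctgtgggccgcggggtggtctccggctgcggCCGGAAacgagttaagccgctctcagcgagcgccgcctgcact
Adam8, chr7:139992513-139992812, minus strand: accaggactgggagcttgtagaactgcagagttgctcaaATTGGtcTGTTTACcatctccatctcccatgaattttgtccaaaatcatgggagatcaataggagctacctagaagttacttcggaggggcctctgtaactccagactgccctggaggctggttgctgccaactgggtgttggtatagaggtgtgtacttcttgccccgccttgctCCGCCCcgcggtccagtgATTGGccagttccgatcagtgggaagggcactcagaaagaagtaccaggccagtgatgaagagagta
The Adam15 window held 5 GC boxes and 2 ETS matches in 65.3% G+C, and that of Adam17 held 1 GC box and 2 ETS matches in 70.0% G+C. The Adam8 window had 52.3% G+C and held the only forkhead match of these 3 windows. A window of Adam19 that is not shown, chr11:46054252-46054551, held 1 as well, and Adam19 was not called by genotype. Over all 32851 promoters of the table, 35.7% held a GC box, 14.9% an ETS match, 37.4% a CCAAT box, 3.65% the forkhead motif, 5.20% the AP-1 motif and 7.15% the E-box. Such matches describe letters only.

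Per kilobase of exon, so that genes can be compared, Adam10 and Adam15 were the most abundant members. In BECs Adam15 led with 148 ± 12.4 RPKM (SD, n = 7 mice), followed by Adam10 at 45.9 ± 7.06 RPKM, Adam17 at 14.4 ± 4.33 RPKM and Adam9 at 11.3 ± 3.46 RPKM. Adam12, Adam19, Adam8 and Adam33 followed at means of 0.631 to 2.1 RPKM in BECs. The mouse ranges of Adam15 and Adam10, of Adam10 and Adam17, and of Adam9 and Adam12 did not overlap, whereas those of Adam17 and Adam9 did. In LECs the mean order was Adam10 (71.1 ± 5.95 RPKM), Adam15 (47.3 ± 31.4), Adam9 (17.0 ± 6.91), Adam17 (13.9 ± 2.67), Adam12 (9.79 ± 5.57), Adam19 (6.67 ± 1.55), Adam8 (3.50 ± 2.71) and Adam33 (1.39 ± 0.827). Each neighbour in that lymphatic order overlapped the next in mouse range down to Adam33. Adam23 stayed at or below 0.102 RPKM in LECs and BECs of every mouse and was not tested in any comparison. Its highest value in these classes, 1.83 CPM in LECs of mutant 2, came from a single cell for the most part: 1 of 1283 mutant LECs held the greater part of the mutant Adam23 signal.

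**Figure D1:**
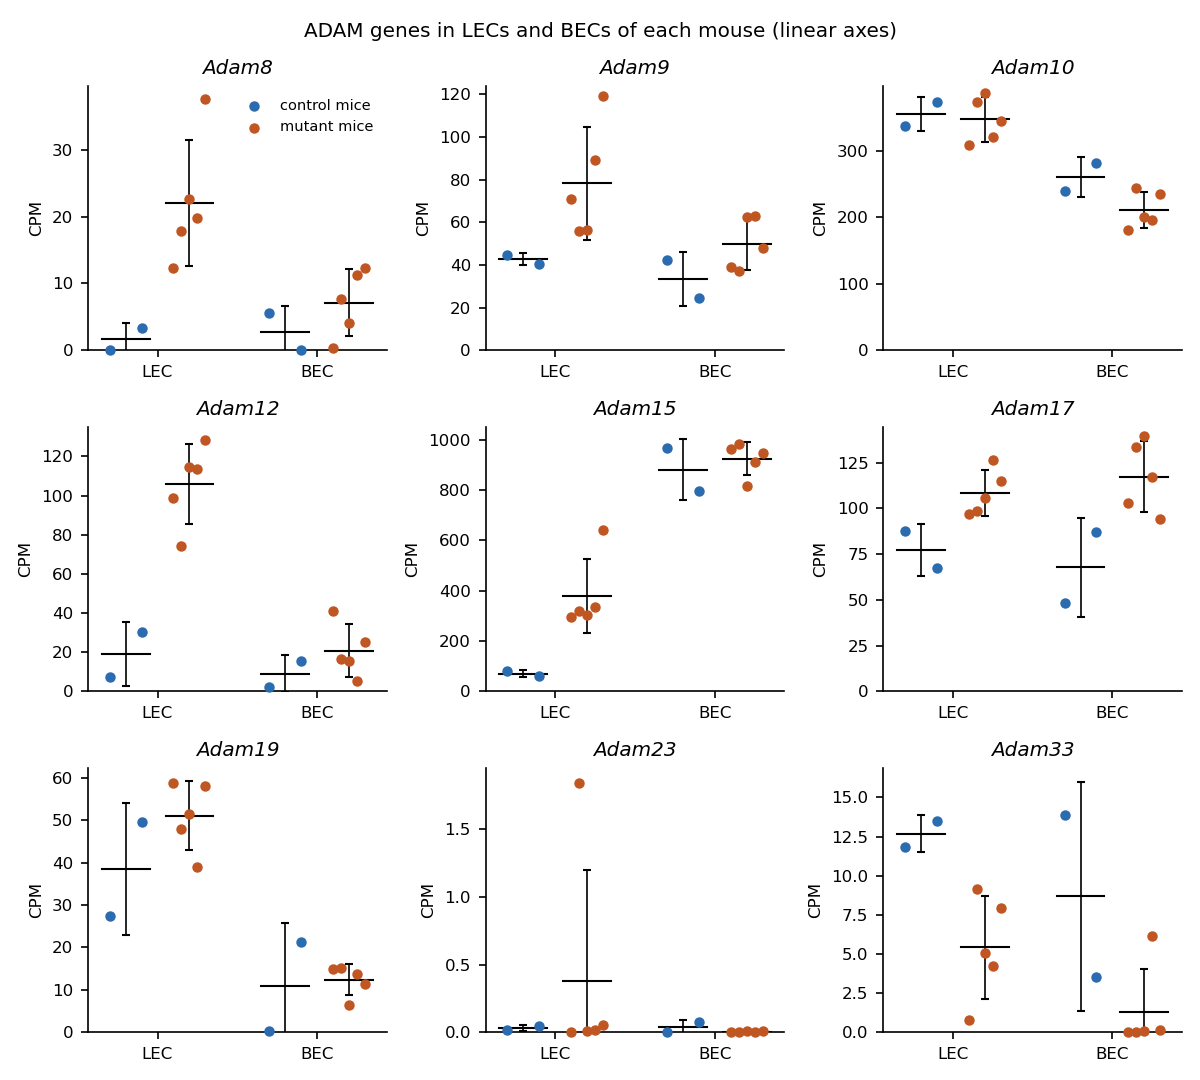
CPM (y axis, linear) of each ADAM gene in LECs and BECs, 1 point per mouse in mouse order from left to right (2 controls in blue, 5 mutants in orange), with mean and SD as black lines. Adam15 in LECs lies between 294 and 643 CPM in mutants and at 61.6 and 79.9 CPM in controls, while its BEC points overlap.

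The 2 endothelial types differed in 5 of the 8 members tested. Adam10, Adam12, Adam19 and Adam9 were higher in LECs and Adam15 was lower, while Adam17 was close to equal. Of all 17593 genes tested in this contrast, 26.4% were called in either direction by edgeR's quasi-likelihood test within mice, at an adjusted p under 0.05. The median log2 difference was 1.28 over the members and 0.02 over all genes.

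Adam12, a proteinase of growing and remodelling tissues, read 7.39 and 30.5 CPM in LECs of controls 1 and 2, and 98.5, 74.4, 115, 113 and 129 CPM in those of mutants 1 to 5. In BECs the same mice gave 2.28, 15.7, 41.2, 16.3, 15.6, 5.46 and 25.2 CPM. Every mouse had more Adam12 in LECs, and the difference was 2.20 on the log2 scale (SE 0.389, adjusted p = 0.00265). Adam19, a relative of ADAM12 that can shed neuregulin, ran from 27.5 to 58.8 CPM in LECs and from 0.348 to 21.3 CPM in BECs. It was higher in LECs of all 7 mice, by 2.35 (SE 0.538, adjusted p = 0.0108).

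The general sheddase Adam10 covered 309 to 387 CPM in LECs and 181 to 282 CPM in BECs, with no overlap between the classes. Its difference was small but even over mice, 0.63 on the log2 scale (SE 0.0774, adjusted p = 0.000301). Adam9 ranged from 40.7 to 119 CPM in LECs and from 24.7 to 63.1 CPM in BECs. It was higher in LECs of 6 of 7 mice, by 0.55 (SE 0.167, adjusted p = 0.0393), and the call was lost without any one of control 2 and mutants 1, 2, 4 and 5 (adjusted p 0.0779 to 0.104).

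Adam15, which can bind integrins through its disintegrin domain, went the other way. It was lower in LECs of all 7 mice, by 1.99 on the log2 scale (log2 fold change -1.99, SE 0.388, adjusted p = 0.00460). The LEC-to-BEC ratio of CPM was 0.0826 and 0.0775 in the controls and 0.306, 0.324, 0.370, 0.370 and 0.677 in mutants 1 to 5, so the gap was narrower in each mutant than in either control.

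Adam17 was near equal in the 2 classes, at 67.3 to 126 CPM in LECs and 48.5 to 140 CPM in BECs (log2 difference -0.02, 95% interval -0.40 to 0.35, adjusted p = 0.943). Adam8 read 0.125 to 37.6 CPM in LECs and 0.0488 to 12.3 CPM in BECs, and its difference of 1.94 had an SE of 1.14 (adjusted p = 0.262). For Adam33 the ranges were 0.821 to 13.5 CPM in LECs and 0.0231 to 13.9 CPM in BECs (3.66, SE 1.38, adjusted p = 0.0835). Both were carried by few cells: the greater part of the mutant LEC signal came from 21 of 1283 cells for Adam8 and from 5 of 1283 for Adam33. Without the highest cell of each mouse, edgeR gave 3.48 for Adam8 (adjusted p = 0.0202) and 4.83 for Adam33 (adjusted p = 0.00134). DESeq2 also called both (adjusted p = 0.0339 and 4.27e-05). Among cells over one gate only, edgeR gave 4.07 (adjusted p = 0.0767) and 0.744 (adjusted p = 0.802), so the outcome depended on the processing.

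LECs of mutant mice were set against those of control mice next, without separating cells by recombination. Ptx3-high cells made up 6.56% and 25.1% of LECs in controls 1 and 2 and 33.2% to 44.1% in mutants. That share was not held constant here. Adam15 and Adam12 rose in mutant LECs, and the other 6 members tested did not pass. In this contrast 1.96% of all 19758 genes were called higher, by the same edgeR test over 5 mutants and 2 controls. Where genotype groups are said not to overlap, the share of all genes doing so was not counted. Non-overlap of so few mice is a description only. The median log2 fold change was 0.72 over the members and -0.01 over all genes. The members were chosen with earlier results of these data known, and the paper reports Adam8 and Adam17 as upregulated in mutant Ptx3 capillary LECs. These counts and medians are therefore descriptions of a chosen list.

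Adam15 in LECs was 79.9 and 61.6 CPM in controls 1 and 2, and 294, 318, 301, 337 and 643 CPM in mutants 1 to 5. The groups did not overlap, and mutant 5 stood above the other mutants. The mean was 379 ± 149 CPM in mutants (SD, n = 5) and 70.7 ± 12.9 CPM in controls (SD, n = 2). On the log2 scale the rise came to 2.46 (SE 0.373, adjusted p = 0.0187). The adjusted p was 0.0644 without control 1 and 0.0654 without control 2, with log2 fold changes of 2.74 and 2.24. Mutant 5 against the 2 controls, all from the same plate number range, gave 3.23 (adjusted p = 0.124), and with plate range as a block the value was 3.21 (adjusted p = 0.00425). Outside the cycling cells it was 2.30 (adjusted p = 0.0566); cycling cells made up 13.2% to 34.2% of mutant and 1.64% to 2.29% of control LECs.

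Its antisense neighbour moved with Adam15 in LECs, and so did Cd34, but other blood endothelial markers did not. The neighbour 4731419I09Rik read 18.3 and 22.0 CPM in control and 75.7 to 161 CPM in mutant LECs. All 6 genes of a list of BEC markers (Cd34, Ly6c1, Ly6a, Sox17, Aqp7 and Cd36) were detected in LECs, and their summed level was 171 and 367 CPM in controls and 444 to 738 CPM in mutants. That rise was Cd34: without it the sum of the other 5 was 141 and 297 CPM in controls and 69.8 to 151 CPM in mutants, against 3222 to 6337 CPM in BECs. The sum of the gate genes Flt1, Emcn and Podxl in LECs was 681 and 689 CPM in controls and 480 to 614 CPM in mutants. Restricting LECs to cells in which the blood sum stayed under 300 CPM left a log2 fold change of 2.27 (adjusted p = 0.0182). The part of the antisense neighbour in the Adam15 value was not tested.

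Adam12 in LECs, with the values given above, did not overlap between groups (106 ± 20.5 CPM in mutants, 18.9 ± 16.3 CPM in controls). The log2 fold change was 2.56 (SE 0.514, adjusted p = 0.0421). Leaving out control 1 or any single mutant put the adjusted p between 0.0584 and 0.0899, at log2 fold changes of 1.91 to 2.66, while without control 2 the value was 3.84 (adjusted p = 0.0108). Mutant 5 against the controls gave 2.84 (adjusted p = 0.414), the fit with plate range as a block 2.83 (adjusted p = 0.122), and cells outside the cycling rule 2.36 (adjusted p = 0.0923).

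Adam8, a proteinase best known from leukocytes, gave 0.125 and 3.38 CPM in LECs of controls 1 and 2, and 12.3, 17.8, 22.6, 19.8 and 37.6 CPM in those of mutants 1 to 5. The fitted difference of 3.74 (SE 1.09) had an adjusted p of 0.105, so Adam8 was not called in LECs. Summed immune marker levels in LECs were 9.47 and 27.9 CPM in controls and 17.4 to 46.1 CPM in mutants, and Ptprc, Itgam, Cd3e and Cd52 stayed at or under 1 CPM in every mouse; 4 of 8 markers exceeded it. Without the highest cell of each mouse, removed gene by gene, the Adam8 value was 7.47 (edgeR adjusted p = 0.00268). Without control 2 it was 7.44. Both leave few control reads: 1 of 358 control LECs held the greater part of the control signal, and control 1 had 7 reads. They therefore cannot test the difference. Adam8 passed with DESeq2 (adjusted p = 0.000142) and in edgeR with thinned cells (adjusted p = 0.0286). In edgeR it did not pass outside the cycling rule (0.240), in cells over one gate only (0.277) or with plate range as a block (0.200).

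The sheddases Adam17 and Adam10 were not called. Adam17 read 87.4 and 67.3 CPM in control LECs and 96.8, 98.4, 106, 126 and 115 CPM in mutant LECs, with no overlap, with an estimate of 0.53 (SE 0.192, adjusted p = 0.178). Adam10 was 337 and 373 CPM in controls and 309 to 387 CPM in mutants, a difference of 0.02 (95% interval -0.30 to 0.33). Adam9 (0.92, SE 0.323, adjusted p = 0.167) and Adam19 (0.46, SE 0.259, adjusted p = 0.355) had positive estimates short of the threshold, and the Adam9 groups did not overlap (40.7 and 44.8 CPM against 56.0 to 119 CPM). Adam33 was 11.8 and 13.5 CPM in controls and 0.821 to 9.17 CPM in mutants (-1.17, SE 0.718, adjusted p = 0.397). Markers of mural cells, the contractile cells around vessels, moved the same way, with a sum over 6 genes (all detected) of 119 and 151 CPM in control and 42.7 to 72.5 CPM in mutant LECs. So did 6 fibroblast genes, all detected, at 243 and 455 CPM against 26.9 to 127 CPM. Among cells in neither gate, Adam33 was at 85.3 CPM in 22 cells led by mural genes and at 0.189 CPM in 14 led by fibroblast genes. The part of these cells in the Adam33 values was not tested.

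**Figure D2:**
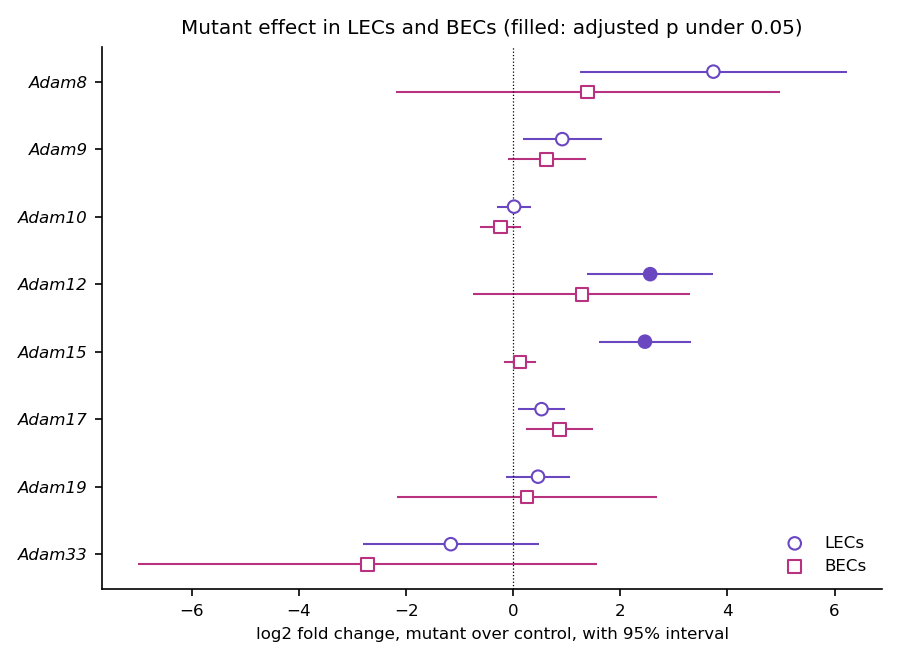
Log2 fold change of mutant over control mice (x axis) with its 95% interval for the 8 tested ADAM genes in LECs (circles) and BECs (squares); filled symbols passed an adjusted p of 0.05. Adam12 and Adam15 are filled in LECs, at 2.56 and 2.46, and no gene is filled in BECs.

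In BECs, none of the 8 members was called by edgeR, against 2.12% of 19315 genes. At an unadjusted p under 0.05 the count was 1, Adam17, beside 3793 of the 19315 genes, and DESeq2 called 1, again Adam17. Adam17 read 48.5 and 87.0 CPM in control and 103, 133, 140, 117 and 94.0 CPM in mutant BECs, so that the groups did not overlap (0.86, SE 0.274, adjusted p = 0.146). The edgeR value for mutant 5 against the controls was 0.52 (adjusted p = 0.966). Adam15 was 967 and 794 CPM in control and 962, 981, 816, 910 and 949 CPM in mutant BECs, a difference of 0.13 with a 95% interval of -0.17 to 0.43. Adam12 had an estimate of 1.28 with an interval of -0.74 to 3.31. Adam8, Adam19 and Adam33 had intervals more than 4 log2 units wide and cannot be placed at this number of mice. Within mutant 5 the BEC level of Adam8 was 22.5 CPM on one plate and 0.454 CPM on the other.

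The mutant effect was then compared between the 2 classes within mice. Adam15 was the member called: its effect exceeded that in BECs by 2.25 on the log2 scale (SE 0.305, adjusted p = 0.0459), where 0.191% of 21933 genes were called. Leaving out either control or any one of mutants 1 to 4 put this adjusted p between 0.0744 and 0.142, with estimates of 2.15 to 2.35, and cells over one gate only gave 2.07 (adjusted p = 0.0681). Outside the cycling rule the estimate was 2.09 (adjusted p = 0.125). For Adam12 the difference was 1.23 (95% interval -0.50 to 2.97, adjusted p = 0.614), so a difference between the classes was not shown for it.

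The share of cells with at least 1 read, after each cell was thinned to 50000 reads, gives the spread of expression over cells. Adam10 was read in 88.5% and 88.0% of control and 89.3% to 95.4% of mutant LECs. These shares did not overlap, although its CPM in LECs did. A higher share in mutants was thus also seen without a rise in level, and shares over all genes were not counted. Adam12 was read in 5.46% and 14.9% of control and 31.6% to 53.1% of mutant LECs, against 1.26% to 21.9% of BECs. Adam8 was read in 1.09% and 1.71% of control LECs and in 4.35% to 14.4% of mutant LECs. Adam15 was read in 56.3% and 32.0% of control and 57.2% to 93.2% of mutant LECs, while its shares in BECs were 79.6% to 96.2%. In Ptx3-high LECs the unthinned Adam15 shares were 100% and 79.5% in controls 1 and 2 and 93.4% to 100% in mutants. These overlapped. After thinning they were 58.3% and 31.8% in controls 1 and 2 and 77.6% to 98.1% in mutants. Adam17 was read in 38.3% and 41.1% of control LECs and 51.3% to 63.2% of mutant LECs.

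**Figure D3:**
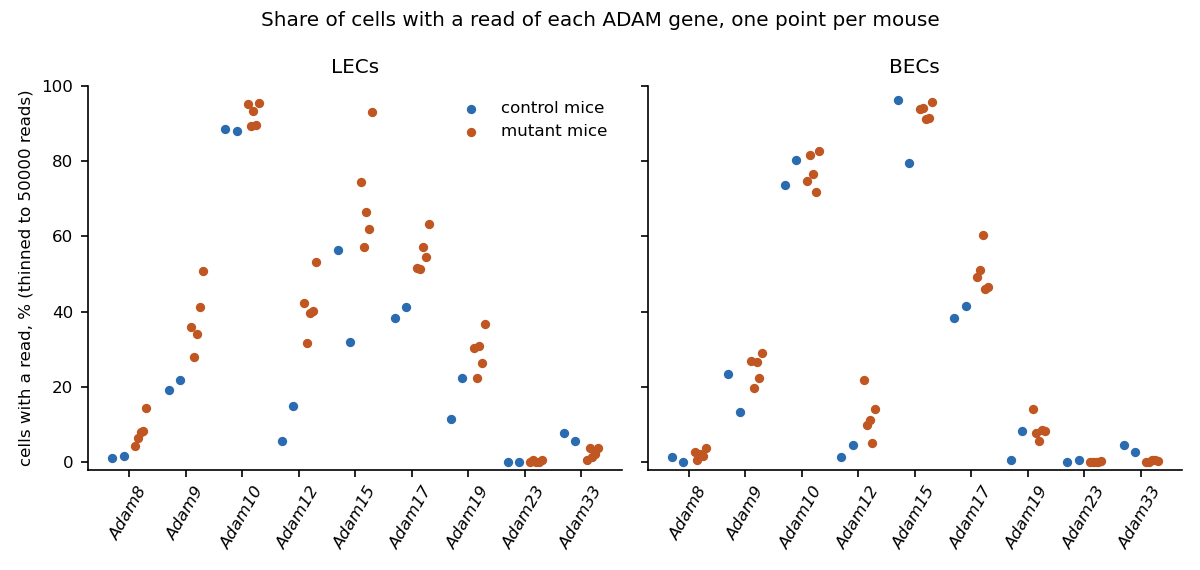
Share of LECs (left) and BECs (right) with at least 1 read of each ADAM gene after thinning each cell to 50000 reads (y axis, percent), 1 point per mouse. In LECs the mutant points of Adam12 run from 31.6% to 53.1% and the control points lie at 5.46% and 14.9%, while Adam10 is near the top in every mouse.

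Ptx3 marks a capillary LEC state that the study set apart, and Ptx3-high LECs were compared with the other LECs of the same mouse. Adam12, Adam19 and Adam15 were higher in Ptx3-high cells, where 1.16% of all 15750 genes tested were called higher. Of these, Adam12 differed most: it read 41.2 and 79.6 CPM in Ptx3-high cells of controls 1 and 2 and 4.71 and 11.9 CPM in their other LECs. In mutants 1 to 5 the Ptx3-high values were 150, 152, 222, 199 and 190 CPM and the others 67.3, 32.7, 47.4, 31.5 and 70.7 CPM. The within-mouse difference was 2.25 (SE 0.251, adjusted p = 0.00354), higher in 7 of 7 mice.

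Adam19 ran from 63.6 to 108 CPM in Ptx3-high and from 9.36 to 52.7 CPM in other LECs, without overlap (1.69, SE 0.30, adjusted p = 0.0194). Control and mutant Ptx3-high ranges of Adam19 overlapped, at 96.4 and 108 CPM against 63.6 to 103 CPM. Adam15 was 97.1 and 80.5 CPM in Ptx3-high cells of the controls and 399 to 769 CPM in those of the mutants, against 54.4 and 78.5 CPM and 155 to 524 CPM in the other LECs. Its difference was 1.04 (SE 0.178, adjusted p = 0.0174). Both calls were lost without mutant 1, 2 or 4, at adjusted p of 0.0534 to 0.0586 for Adam15 and 0.0527 to 0.0687 for Adam19. Among cells over one gate only, the estimates were 1.84 for Adam12, 1.68 for Adam19 and 0.93 for Adam15 with adjusted p of 0.0922, 0.144 and 0.0797. Cycling cells were 17.1% to 35.5% of mutant Ptx3-high and 10.5% to 33.6% of mutant other LECs, and outside the cycling rule the Adam15 call was lost (1.18, adjusted p = 0.0522).

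In mutant mice alone, 4 members were called higher in Ptx3-high LECs and 1 lower, where 3.35% and 3.57% of 15863 genes were. Besides Adam12, Adam15 and Adam19, Adam17 was higher by 0.48 (SE 0.0820, adjusted p = 0.0160), at 119 to 144 CPM against 83.5 to 109 CPM. Adam33 was lower: 0.0217 to 0.169 CPM in Ptx3-high LECs of the mutants and 1.26 to 15.2 CPM in their other LECs (log2 fold change -6.23, SE 0.742, adjusted p = 0.00529). The Adam33 reads sat in few cells, and over all 7 mice the value was -4.96 (adjusted p = 0.0573), with control 2 higher in Ptx3-high cells (15.6 against 12.7 CPM). Whether the Ptx3 effect differed by genotype was tested directly: edgeR called none of 8 members (0.0202% of 19764 genes called). At an unadjusted p under 0.05 it gave 5 members, beside 2417 of the 19764 genes. DESeq2 called 2, Adam8 and Adam33, and its count over all genes is given in the last section.

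**Figure D4:**
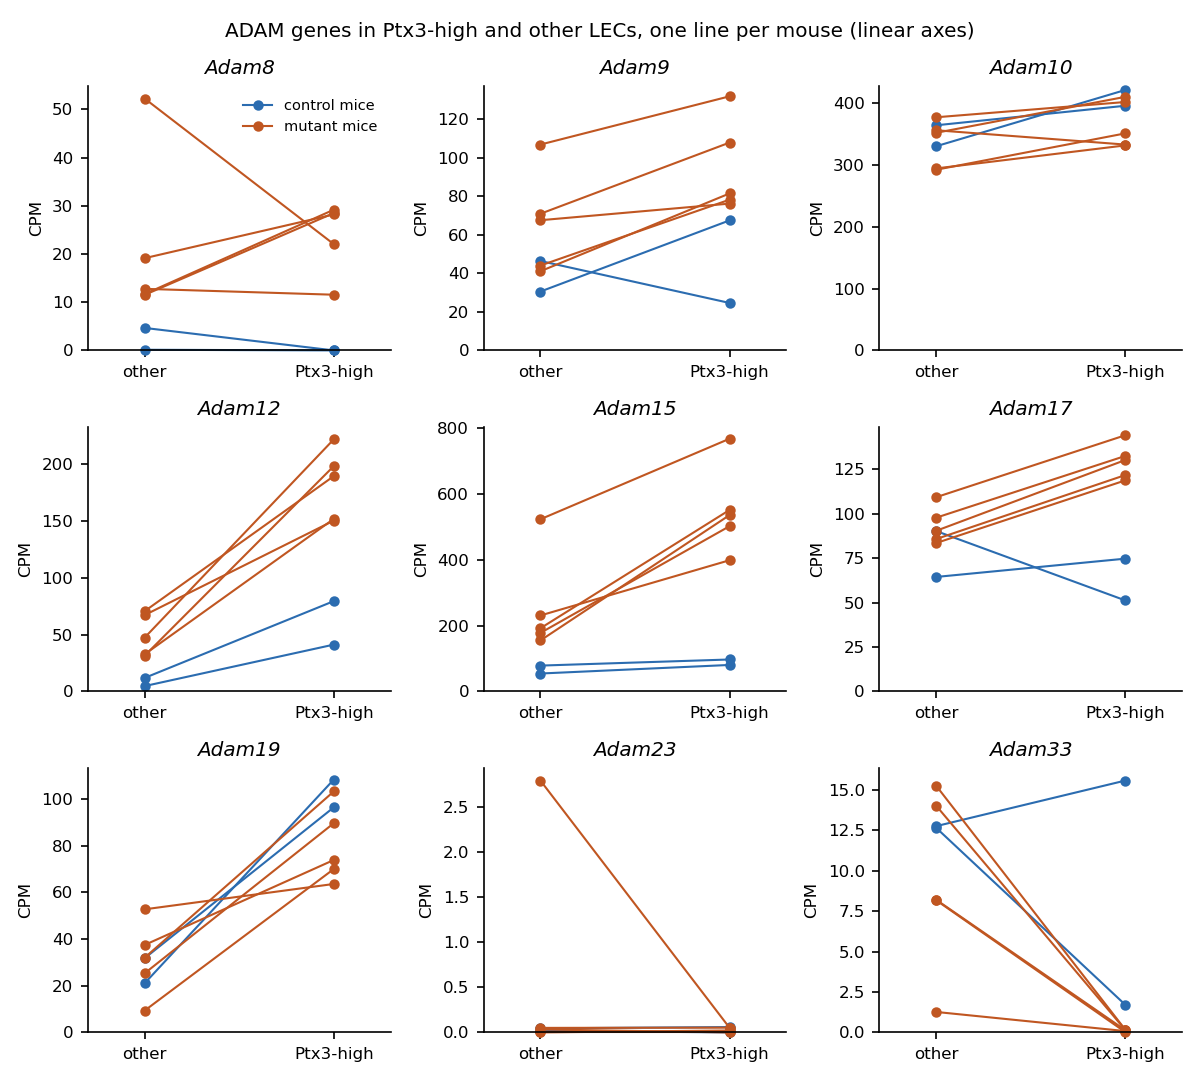
CPM (y axis, linear) in other and Ptx3-high LECs, 1 line per mouse (controls blue, mutants orange). The lines of Adam12, Adam15 and Adam19 rise in 7 of 7 mice.

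Within Ptx3-high LECs, 4 members were called higher and 1 lower in mutants, while 3.05% and 2.04% of 16727 genes were. Among the 4 was Adam8, which had no read in either control and entered the test through the mutants alone. Its call cannot be set against those shares. Both controls together held only 56 such cells. Adam15 rose by 2.62 (SE 0.286, adjusted p = 0.00710), and this call held without each mouse in turn (adjusted p 0.00499 to 0.0289) and for mutant 5 against the controls (3.07, adjusted p = 0.000272). Cd34 moved with it here too, at 8.79 and 20.5 CPM in control and 565 to 813 CPM in mutant Ptx3-high LECs, while the other 5 BEC markers summed to 106 and 226 CPM in controls and 54.1 to 87.6 CPM in mutants. Cells over one gate only gave 2.30 (adjusted p = 0.00506). Adam12 rose by 1.62 (SE 0.294, adjusted p = 0.0213). Adam17 was 51.2 and 74.7 CPM in controls and 119, 122, 130, 144 and 133 CPM in mutants, an estimate of 1.05 (SE 0.226, adjusted p = 0.0351). For mutant 5 against the controls these 2 genes gave 1.64 and 1.05, both with an adjusted p of 1.00. The Adam12 call was lost without control 1 or any one of mutants 3 to 5 (adjusted p 0.0537 to 0.0613), among cells over one gate only (1.05, adjusted p = 0.134), outside the cycling rule (adjusted p = 0.0550) and without the highest cell of each mouse (adjusted p = 0.118). That of Adam17 was lost without control 1 or any single mutant (0.0716 to 0.0988), and among cells over one gate only its estimate was 0.47 (adjusted p = 0.501).

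Adam8 had no read in Ptx3-high LECs of either control and 11.6, 29.2, 28.2, 28.5 and 22.0 CPM in those of the mutants. The pooled mutant level was 23.7 CPM, and 3 reads over both controls would give 0.143 CPM. Adam8 reads sat in few cells: 1 of 358 control LECs held the greater part of the control signal. With only 56 control Ptx3-high cells, a single such cell could move the control level, so no fold bound is given. With no control read the gene entered the edgeR test (adjusted p = 0.00864) through the mutants alone. With plate range as a block the adjusted p was 0.0595, and for mutant 5 against the controls it was 0.788. Counted per mouse without thinning, none of the 12 and 44 Ptx3-high cells of controls 1 and 2 held a read. In mutants 1 to 5 the shares were 17.7%, 12.9%, 20.6%, 14.5% and 44.4%. Cells of a mouse are not replicates, so no interval over cells is given. The 8 immune markers summed to 9.27 and 22.0 CPM in control and 20.0 to 64.5 CPM in mutant Ptx3-high LECs, with 5 above 1 CPM in some mouse and Ptprc, Cd3e and Cd52 not; their part was not tested. The level of 0.143 CPM covers counting error of reads only. Adam33 was lower in mutant Ptx3-high LECs (log2 fold change -6.15, adjusted p = 0.0197), from 1.71 and 15.6 CPM in the controls; without control 2 it was -3.95 (adjusted p = 0.0736), and without mutant 1, 2 or 4 the adjusted p was 0.0502 to 0.0569. With plate range as a block the value was -5.62 (adjusted p = 0.423), and for mutant 5 against the controls it was -5.61 (adjusted p = 1.00). Mural genes, all 6 detected, were at 100 and 371 CPM in control and 32.9 to 103 CPM in mutant Ptx3-high LECs, and fibroblast genes, all 6 detected, at 375 and 972 CPM against 20.5 to 180 CPM; their part was not tested.

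Among the other LECs no member was called by edgeR (0.0536% of 18665 genes called). At an unadjusted p under 0.05 there were 3 members, beside 2538 of the 18665 genes. Adam15 was 78.5 and 54.4 CPM in controls and 231, 192, 155, 178 and 524 CPM in mutants, which do not overlap (1.96, SE 0.505, adjusted p = 0.164). Adam12 had 4.71 and 11.9 CPM against 31.5 to 70.7 CPM (2.63, SE 0.513, adjusted p = 0.0980). Adam17 overlapped, at 64.4 and 90.3 CPM against 83.5 to 109 CPM (0.29, adjusted p = 0.587).

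Genes around the sheddases were taken from 4 lists: 25 other ADAM genes, 19 ADAMTS genes, 18 regulators and 32 substrates of shedding. Between LECs and BECs, 2 of 14 tested ADAMTS genes were higher and 5 lower in LECs. Adamts18 was 0.488 to 34.9 CPM in BECs and at most 0.232 CPM in LECs, and Adamts9, Adamts12 and Adamts17 were also lower. Of 17 regulators tested, 4 were higher and 5 lower. Pcsk6, a proprotein convertase, led at 269 to 437 CPM in LECs and 10.0 to 36.3 CPM in BECs (4.17, adjusted p = 7.72e-06). Tspan15, a tetraspanin partner of ADAM10, was lower in LECs (-2.05, SE 0.278, adjusted p = 0.000555), the reverse of Adam10 itself. Timp4, a metalloproteinase inhibitor, and Pcsk5 were lower as well (-2.02 and -1.72). Among 25 substrates 7 were higher and 12 lower, with Lyve1, the lymphatic hyaluronan receptor, higher by 5.21 and Vcam1, Cx3cl1 and Notch4 lower (-4.50, -4.49 and -4.43). None of 5 other ADAM genes tested was called by edgeR (1 at an unadjusted p under 0.05, beside 6494 of all 17593 genes, and 1 by DESeq2). Median log2 differences were -0.74 for the ADAMTS genes, 0.17 for the regulators and -0.81 for the substrates, beside 0.02 over all genes.

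In mutant LECs few of these genes were called. The adhesion molecule L1cam, a substrate of ADAM10, read 47.3 and 20.1 CPM in control and 97.0 to 199 CPM in mutant LECs (2.13, SE 0.416, adjusted p = 0.0395), 1 of 26 substrates tested. Adam22, a catalytically inactive ADAM, was lower (-2.87, adjusted p = 0.0418), 1 of 7 other ADAM genes. No ADAMTS gene of 13 and no regulator of 17 was called by edgeR. At an unadjusted p under 0.05 there were 5 and 1, beside 3963 of all 19758 genes, and DESeq2 called 4 and 0. In mutant BECs 4 of 28 substrates were higher and 2 lower: Vcam1 (2.42), Procr (1.86) and Icam1 (1.45) were higher and Dll4, a Notch ligand, was lower (-1.24, adjusted p = 0.0306). Timp2 of the regulators was higher in mutant BECs, at 272 and 284 CPM against 486 to 720 CPM (1.09, adjusted p = 0.0269), as was Adamts5 (2.21, adjusted p = 0.0281). The direct test between the classes called no gene of the 4 lists in edgeR. At an unadjusted p under 0.05 it gave 0 other ADAM genes, 2 ADAMTS genes, 5 regulators and 14 substrates, beside 2528 of all 21933 genes. DESeq2 called 0, 1, 3 and 7 genes of these lists.

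Ptx3-high LECs had lower Dll4 than other LECs (-1.41, SE 0.200, adjusted p = 0.00767), lower Tgfa, an EGF-family ligand shed by ADAM17 (-3.34, adjusted p = 0.0210), and higher Lyve1 (0.44, adjusted p = 0.0368). These were 1 higher and 2 lower of 25 substrates. Timp4 and Timp3 were lower (-2.11 and -0.32) and Pcsk6 higher (0.39) among 16 regulators, and Adamts1 was lower (-0.83) among 12 ADAMTS genes. In Ptx3-high LECs of mutants against controls, L1cam was 0.238 and 1.95 CPM, from 12 reads in all, against 166 to 254 CPM. Dll1 was higher (2.90, adjusted p = 0.0430), Tspan17 higher (1.68, adjusted p = 0.0271) and Timp4 lower (-3.06, adjusted p = 0.0428). L1cam was also the gene of the 27 substrates tested whose Ptx3 effect differed between genotypes (adjusted p = 0.00678).

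Levels most like those of a member over the 14 LEC and BEC sums, among 13565 genes, are given as Pearson correlations of log2(CPM + 1) with TMM-scaled CPM, unnamed gene models left out. The sums share mice, plates and class, and no p is attached. Closest to Adam15 were Cd34 (0.986), Ehbp1l1 (0.981) and Def6 (0.964). Cd34, a sialomucin of blood vessels, read 29.4 and 70.2 CPM in control and 355 to 624 CPM in mutant LECs, and 1303 to 1716 CPM in BECs. Adam12 was closest to Tyms (0.954), Slc15a3 (0.952) and Ran (0.940); Tyms makes thymidylate for DNA synthesis. For Adam19 the nearest were B9d2 (0.974) and Brd7 (0.939), for Adam10 Myo7a (0.933) and Sec16b (0.933), for Adam9 Ndfip1 (0.931) and for Adam17 Txnrd1 (0.898). Adam33 came nearest to Upf3a (0.906) and Adam8 to Dst (0.890).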

How the data were processed

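Cells were sequenced by Smart-Seq2 in 384-well plates (9 plates, 7 mice). The authors aligned reads with TopHat2 2.1.1 to GRCm38 plus the chicken PIK3CA sequence, removed duplicate reads with SAMtools 0.1.18 and deposited raw read counts per gene from featureCounts; the annotation version is not given in the sources used here. Gene symbols came from GENCODE vM21 (98.9% of 46517 genes named); 92 spike-in rows were left out. Cells needed 200 genes, 50000 reads and at most 10% mitochondrial reads. Smart-Seq2 has no molecular identifiers, and no doublet caller was run: 1201 cells had both marker sums at 300 CPM or more, and were kept with the higher sum. Raw counts were summed per mouse and class (at least 5 cells), plates of a mouse being added, and tested with edgeR 4.0.16 (filterByExpr, TMM, quasi-likelihood F test, two-sided) in R 4.3.3, with mouse as a block within mice and Benjamini-Hochberg adjustment over all genes tested. LEC and BEC sums held 38402388 to 194353210 reads. DESeq2 1.42.0, other size factors, gates, Ptx3 limits, filters, thinning and left-out mice were alternatives; removal of the highest cell and cells over one gate only were added after seeing the data. Scripts were tested on simulated data. All 9 members were reported; from each other list at most 4 called genes were named, by size of change. Genotype tests in other LECs and Ptx3 tests in mutant mice alone were added. Members and lists were chosen with earlier results of these data known. Means over replicates are over mice. Mutant and control mice share replicate numbers in the labels only.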

Additional observations from a re-analysis of the deposited data

Results flagged for a closer look

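A mutant mouse far from the other 4 was met in 6 of 36 sets of 5 mutant values (9 genes in 4 classes); chance alone gives about 1 in 20 sets, and the classes share cells. Mutant 5 was highest for Adam15 in LECs (643 CPM, median of the mutants 318 CPM) and in other LECs (524 CPM, median 192 CPM), and for Adam8 in other LECs (52.2 CPM, median 12.8 CPM). Without mutant 5 the Adam15 difference in LECs was 2.19 on the log2 scale (edgeR adjusted p = 0.00477). Its 2 plates agreed on the Adam15 level, at 621 and 663 CPM. Mutant 5 also had the deepest LECs, with a median of 488024 reads per cell against 274769 to 335017.5 in the other mutants; the part of depth was not tested apart from thinning, under which the Adam15 difference was 2.16 (adjusted p = 0.0107). Mutant 2 was highest for Adam23 in LECs (1.83 CPM) and in other LECs (2.79 CPM), where 1 cell held most reads. Mutant 4 was highest for Adam33 in BECs (6.17 CPM, median 0.0635 CPM); 1 of 1174 mutant BECs held the greater part of that gene's signal.

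The Adam15 mutant effect differed between LECs and BECs by 2.25 on the log2 scale in the direct test (edgeR adjusted p = 0.0459). All 5 mutants were above both controls in LECs, and the groups overlapped in BECs.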

How the results depend on the processing

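No called result changed direction under these alternatives; without thinning, the mutant-minus-control difference in the share of LECs with an Adam10 read went from 4.28 to -0.72 percentage points. Of 992 values for single genes, 873 kept their side of the threshold or their size, 80 lost the call, 26 gained it and 13 shares of cells moved; of 244 counts of calls, 136 stayed within 1.5 times the main count. The cause of these shifts was not tested; with fewer mice or cells the tests have less data. For LECs against BECs, 5 members and 4645 genes were called; leaving out 1 mouse at a time gave 4 to 7 members and 3720 to 4400 genes. For mutant against control LECs, 2 members and 546 genes were called, against 4 and 2472 with DESeq2, 0 and 82 with cells outside the cycling rule, 3 and 1014 with the highest cell of each mouse removed, 0 and 3 with the replicate block, 1 and 178 with the plate range as a block, 0 and 3 for mutant 5 against the controls; leaving out 1 mouse at a time gave 0 to 2 members and 153 to 546 genes. For mutant against control BECs, 0 members and 410 genes were called, against 1 and 2238 with DESeq2, 0 and 659 with the highest cell of each mouse removed, 0 and 0 with the replicate block, 0 and 54 with the plate range as a block, 0 and 0 for mutant 5 against the controls; leaving out 1 mouse at a time gave 0 to 1 member and 159 to 586 genes. For the difference of the mutant effect between classes, 1 member and 42 genes were called, against 1 and 1241 with DESeq2, 0 and 18 with cells outside the cycling rule, 1 and 90 with the highest cell of each mouse removed, 0 and 22 with cells over one gate only; leaving out 1 mouse at a time gave 0 to 1 member and 0 to 21 genes. For Ptx3-high against other LECs, 3 members and 430 genes were called, against 4 and 1732 with DESeq2, 0 and 48 with cells over one gate only, 1 and 130 with no replicate block; leaving out 1 mouse at a time gave 1 to 6 members and 166 to 834 genes. For the difference of the Ptx3 effect between genotypes, 0 members and 4 genes were called, against 2 and 1344 with DESeq2, 0 and 10 with no expression filter, 0 and 7 with cells outside the cycling rule, 0 and 10 with cells thinned to 50000 reads, 0 and 13 with a gate of 600 CPM, 0 and 0 with cells over one gate only, 0 and 9 with a Ptx3 limit of 50 CPM, 0 and 39 with a Ptx3 limit of 200 CPM; leaving out 1 mouse at a time gave 0 to 1 member and 1 to 1965 genes. For mutant against control Ptx3-high LECs, 5 members and 853 genes were called, against 5 and 2925 with DESeq2, 3 and 279 with cells outside the cycling rule, 3 and 766 with cells thinned to 50000 reads, 3 and 1537 with the highest cell of each mouse removed, 2 and 680 with cells over one gate only, 1 and 29 with the replicate block, 1 and 24 with the plate range as a block, 1 and 48 for mutant 5 against the controls, 3 and 775 with a Ptx3 limit of 200 CPM; leaving out 1 mouse at a time gave 2 to 5 members and 288 to 4335 genes. The counts of 1965 and 4335 genes were those without control 2. Mutants and controls share replicate numbers in the labels only. Deviations of same-numbered mice correlated at -0.05 for number 1 and 0.03 for number 2. With 2 controls, the deviations of the controls are exact opposites, so these correlations cannot show or exclude a pairing. Under the replicate block the Adam15 difference in LECs was 2.15 (edgeR adjusted p = 0.106). Adam23 was too low for any test, and the greater part of the mutant BEC signal lay in 4 of 1174 cells for Adam8 and in 1 for Adam33. Adam8 was among the 5 members called in mutant against control Ptx3-high LECs and entered that test through the mutants alone.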
